A study of Homo sapiens with 4 samples.

Results

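The genes of oxidative phosphorylation, the set of mitochondrial enzymes that turns electrons from nutrients into ATP, were compared between PC3 cells that over-expressed PDEF and PC3 cells with a control vector. Genes were taken by symbol, namely those starting with NDUF, UQCR, COX4 to COX8 or ATP5, and SDHA, SDHB, SDHC, SDHD and CYC1, where a probe set of the array was annotated to that gene alone and the gene was no pseudogene. This gave 88 of the 18417 genes measured, read from 96 probe sets. Of the 88, 71 encode common subunits of the complexes (34 of complex I, 3 of complex II, 8 of complex III, 10 of complex IV and 16 of ATP synthase). The other 17 are 7 complex I assembly factors, 6 tissue-restricted isoforms of complex IV subunits, the supercomplex factor gene COX7A2L, the ATP synthase inhibitor gene ATP5IF1, the retrocopy ATP5MGL, and NDUFV1-DT, a non-coding transcript that runs away from NDUFV1. SDHB and UQCRFS1 were not analysed here, nor were genes such as NDUFS5, NDUFC2 and ATP5F1E, whose probe sets were annotated to several genes.

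Complex I passes electrons from NADH to ubiquinone and complex II from succinate, complex III hands them to cytochrome c, and complex IV gives them to oxygen. Complexes I, III and IV pump protons across the inner membrane, and ATP synthase, or complex V, lets the protons flow back and makes ATP. Nearly all of their subunits are encoded in the nucleus and a small core in mitochondrial DNA, and each complex needs dedicated assembly factors. Normal prostate epithelium is known for a truncated citric acid cycle, since it secretes citrate, and prostate cancers for restored citrate oxidation.

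The study hybridized total RNA to Affymetrix HuGene-1.0-st arrays. PC3 is an established line from a bone metastasis of prostate cancer. The control, labelled PC3-SCR (VC-PC3 in the study), carried the empty vector pBABE, and PC3-PDEF was engineered to over-express PDEF, the ETS transcription factor encoded by SPDEF. There were 2 arrays of each, all from cells kept in the same serum-supplemented medium, and whether the transfected cells were a clone or a pool is not given in the sources used here. Values are log2 array signals, so a difference of 1 is a 2-fold change, and differences are PC3-PDEF minus PC3-SCR throughout.

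SPDEF lay at 5.99 and 6.06 in PC3-SCR and at 6.85 and 6.73 in PC3-PDEF, a rise of 0.77 (standard error 0.088, adjusted p = 0.000563 from limma). Its PC3-SCR signals were barely above the gauge of background given below (5.94 and 6.01 in these arrays), so the size of the rise is not exact. CTNNA1 and STAT3, genes that PC3 is known to have lost by homozygous deletion, lay at 4.07 to 4.77 in PC3-SCR and at 9.05 to 9.86 in PC3-PDEF. The arrays labelled PC3-PDEF thus do not show this feature of the PC3 line, and what else differs between the cells besides PDEF cannot be told apart from PDEF in any value below. Of the epithelial markers read here, EPCAM and KRT8 were lower in PC3-PDEF. EPCAM lay at 7.81 and 7.74 in PC3-SCR and at 5.65 and 6.53 in PC3-PDEF (adjusted p = 0.00212), where 1 array was not above background, and its probe set is numbered among those of another chromosome, so the size of the difference is not exact. The luminal keratin gene KRT8 fell by 0.64 (adjusted p = 0.000852), and KRT18 differed by -0.25 (adjusted p = 0.0882), both above background in all 4 arrays. The probe set of KRT18 is, like that of EPCAM, numbered among those of another chromosome, so the size of its difference is not exact. The part of these differences in the results was not tested. The highest of 341 olfactory receptor genes, which lay between 5.65 and 6.01 per array, served as the gauge of background, and 76 of the 88 members were above it in all 4 arrays. As in any bulk sample, fewer cells of a kind and less RNA per cell cannot be told apart.

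Members moved in both directions, and their median lay close to that of all genes. At an adjusted p under 0.05 from limma, 23 of the 88 members were higher in PC3-PDEF and 16 lower, 26.1% and 18.2%, while of all 18417 genes 26.7% were higher and 24.0% lower. In either direction 44.3% of the members were called, against a background of 50.7%. Among genes above background in both groups, 48.7% of 76 members were called and 65.2% of all 8935 genes. The members' median was 0.05 on the log2 fold change scale and that of all genes -0.05, and after median centring of the arrays these medians were -0.02 and -0.12. Their changes were mostly small, with a median absolute log2 fold change of 0.22, and 3 of the 88 changed at least 2-fold, while 14.7% of all genes did. These were NDUFV2, which fell, and NDUFAF4 and ATP5F1C, which rose. Among the genes above background the median absolute change was 0.28 for members and 0.43 for all genes. For 61 members, or 69.3%, both arrays of 1 group lay above both of the other, as they did for 74.7% of all genes. Of the 39 called members, 17 were also called in each of the 4 fits that left out 1 array, 12 of them higher and 5 lower, and no called member changed sign in those fits. The members counted 18 higher and 5 lower without PC3-SCR replicate 1, 14 and 8 without PC3-SCR replicate 2, 13 and 7 without PC3-PDEF replicate 1, and 12 and 6 without PC3-PDEF replicate 2. In such a fit the lone array is assumed to vary like the pair, and fewer of all genes were called too. The number of arrays limits the precision. Whether the pair in each group stems from separate cultures is not stated, and if it does not, the p-values cover technical spread alone.

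**Figure D1:**
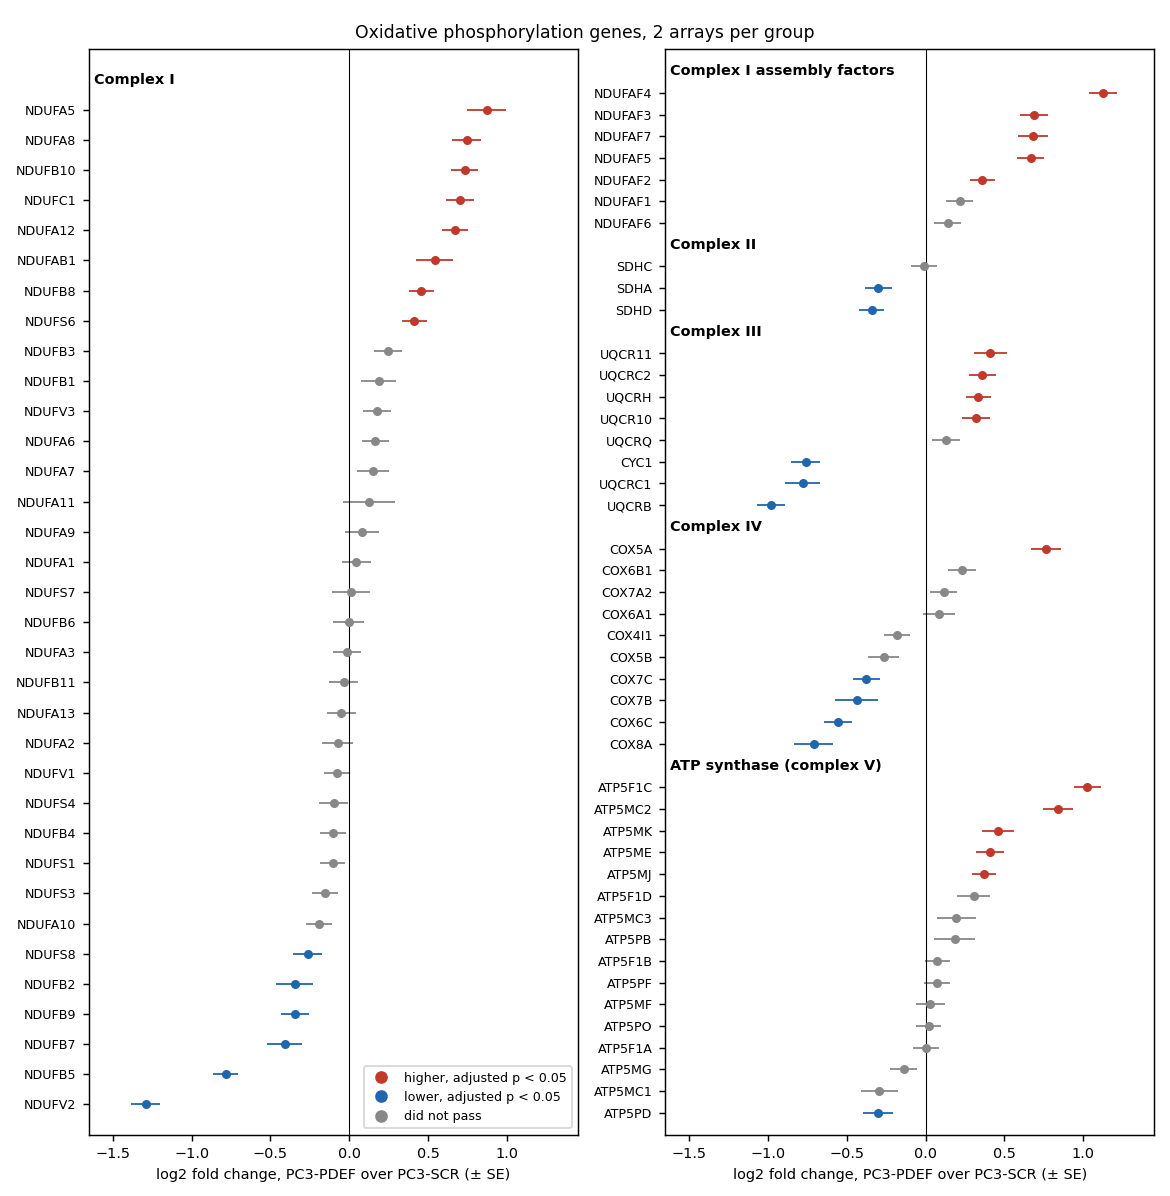
Log2 fold change of PC3-PDEF over PC3-SCR (horizontal axis, bars are the standard error, 2 arrays per group) of the 34 complex I subunit genes (left) and of complex I assembly factors and the subunit genes of the other complexes (right), with genes higher at an adjusted p under 0.05 in red, lower in blue and the others in grey. Values run from NDUFV2 at -1.29 to NDUFAF4 at 1.13, the 7 assembly factors with an NDUFAF symbol lie to the right of zero, and complexes I, III, IV and V have called genes on both sides.

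In complex I, 8 of the 34 subunit genes rose, 6 fell and 20 stayed under the threshold, with a median log2 fold change of 0.00. These are 23.5% higher and 17.6% lower, against 26.7% and 24.0% of all genes. The largest change was that of NDUFV2, the gene of a subunit with an iron-sulfur cluster in the NADH-oxidizing tip of the complex. Its signals were 9.61 and 9.50 in PC3-SCR and 8.20 and 8.33 in PC3-PDEF. It fell by 1.29 (standard error 0.093, adjusted p = 7.62e-05 from limma), which is 2.45-fold, and both PC3-PDEF arrays lay far under both PC3-SCR arrays. Of its partners in that tip, the N module, none of the other 7 fell. NDUFV1, whose product binds NADH and FMN, had signals of 10.41 and 10.40 against 10.35 and 10.30, and NDUFS1, which carries further iron-sulfur clusters, 10.24 and 10.20 against 10.11 and 10.12. Their differences were -0.08 (adjusted p = 0.446) and -0.11 (adjusted p = 0.319), with 95% intervals of -0.28 to 0.12 and of -0.30 to 0.09. NDUFA12, an accessory subunit of the same tip, rose from 9.11 in both PC3-SCR arrays to 9.75 and 9.81, by 0.67 (adjusted p = 0.000685).

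In the Q module, where ubiquinone is reduced, NDUFA5, an accessory subunit gene, had signals of 7.28 and 7.51 in PC3-SCR and of 8.15 and 8.38 in PC3-PDEF. It rose by 0.87 (standard error 0.122, adjusted p = 0.0013), the largest rise among complex I subunits, but its adjusted p was 0.0503 without PC3-SCR replicate 1 and 0.0599 without PC3-PDEF replicate 2. NDUFS8, which carries iron-sulfur clusters, was the gene of this module that fell, by 0.27 (adjusted p = 0.0485, and between 0.0638 and 0.206 with any 1 array left out). The catalytic genes NDUFS3 and NDUFS7 did not pass.

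In the membrane arm, 2 of 7 genes of the proximal part rose (28.6%) and none fell. Of 12 genes of the distal part 3 rose (25.0%) and 4 fell (33.3%), where 26.7% of all genes rose and 24.0% fell. NDUFA8, a disulfide-bonded subunit, lay at 8.03 and 7.92 against 8.66 and 8.78 and rose by 0.75 (adjusted p = 0.000736), and NDUFC1 rose by 0.70 (adjusted p = 0.000804). In the distal part of the arm NDUFB10 lay at 7.66 and 7.56 against 8.34 in both PC3-PDEF arrays and rose by 0.73 (adjusted p = 0.000554), NDUFB8 rose by 0.46, and NDUFAB1, the mitochondrial acyl carrier protein, rose by 0.54. NDUFB5, a neighbour of these in the same part, went the other way, from 10.12 and 10.08 to 9.28 and 9.35, a fall of 0.79 (standard error 0.082, adjusted p = 0.00037). NDUFB7 fell by 0.41, NDUFB2 by 0.35 and NDUFB9 by 0.35. Rises and falls thus stood side by side within 1 structural part. With any 1 array left out, 5 to 7 complex I genes were higher and 2 to 3 lower. NDUFS6 and NDUFAB1, and NDUFB7, NDUFB2 and NDUFB9, each missed the threshold in at least 1 of these fits, with adjusted p values of up to 0.0512, 0.155, 0.193, 0.281 and 0.116.

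The 7 complex I assembly factors with an NDUFAF symbol, which help to build the complex and are not part of it, had positive differences. Of these, 5 were called higher (71.4%, where 26.7% of all genes were) and none lower, and their median log2 fold change was 0.67. NDUFAF4 had signals of 7.89 and 7.75 in PC3-SCR and of 8.97 and 8.92 in PC3-PDEF. It rose by 1.13 (standard error 0.09, adjusted p = 0.000115), a 2.18-fold higher signal and the largest rise of any member. NDUFAF3, its binding partner in early assembly, lay at 6.99 and 6.86 against 7.64 and 7.58 and rose by 0.69. NDUFAF7, an arginine methyltransferase, lay at 7.63 and 7.68 against 8.25 and 8.42 and rose by 0.68. NDUFAF5, a hydroxylase of NDUFS7, rose by 0.67, from 5.78 and 5.88, not above background, to 6.49 and 6.50, so the size of its change is not exact. In all 7 both PC3-PDEF arrays lay above both PC3-SCR arrays, where 74.7% of all genes had groups that did not overlap. Complex I assembly factors with other symbols moved both ways. TMEM186 rose by 1.08, ACAD9 by 1.02 and NUBPL by 0.40, while ECSIT fell by 0.74 (adjusted p = 0.000653) and FOXRED1 by 0.61 (adjusted p = 0.00127). The calls of TMEM186 and NUBPL did not hold in every fit with 1 array left out, while those of ACAD9, ECSIT and FOXRED1 did. TMEM126B, TIMMDC1, COA1 and DMAC1 did not pass with all arrays. These genes were named after their values were seen. NDUFAF1 differed by 0.22 (adjusted p = 0.0815) and NDUFAF6, near background in both groups, by 0.14 (adjusted p = 0.228). NDUFAF2 rose by 0.36, and its adjusted p lay between 0.0543 and 0.0664 with any 1 array left out.

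Complex II, succinate dehydrogenase, is also an enzyme of the citric acid cycle and has no subunit from mitochondrial DNA. SDHA, the flavoprotein gene, had signals of 11.07 and 11.10 in PC3-SCR and of 10.83 and 10.74 in PC3-PDEF and fell by 0.30 (standard error 0.084, adjusted p = 0.0245). SDHD, a membrane anchor gene, lay at 10.29 and 10.31 against 9.96 in both PC3-PDEF arrays and fell by 0.34 (adjusted p = 0.0123). SDHC, the other anchor, did not differ beyond its spread, with 9.97 and 9.89 against 9.90 and 9.94. Its difference was -0.01, with a 95% interval of -0.21 to 0.19. Both falls were small, and without any 1 array neither passed, with adjusted p values of 0.0676 to 0.111 for SDHA and 0.0534 to 0.0699 for SDHD.

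Complex III was the complex with the largest share of called genes, 87.5%, and they split by direction. Of 8 genes, 4 rose and 3 fell, and for each of the 8 the PC3-SCR and PC3-PDEF arrays lay apart. Over all genes 50.7% were called and 74.7% had groups that lay apart, and among those above background in both groups 65.2% and 86.8%. The falls were the larger changes. UQCRB, which encodes a ubiquinone-binding subunit, lay at 6.63 and 6.54 in PC3-SCR and at 5.65 and 5.56 in PC3-PDEF. It fell by 0.98 (standard error 0.087, adjusted p = 0.000182), and its PC3-PDEF signals were not above background, so the size of the fall is not exact. UQCRC1, a core protein gene, fell from 9.97 and 9.87 to 9.27 and 9.01, by 0.78 (adjusted p = 0.00147, and 0.0614 without PC3-SCR replicate 1). CYC1, the gene of cytochrome c1, which holds the haem that passes electrons to cytochrome c, fell from 10.87 and 10.79 to 10.14 and 10.00, by 0.76 (adjusted p = 0.000669). The second core protein gene, UQCRC2, moved the opposite way to UQCRC1, from 10.67 and 10.69 to 11.00 and 11.08, a rise of 0.36 (adjusted p = 0.0114). The small subunit genes UQCR11, UQCRH and UQCR10 rose by 0.41, 0.34 and 0.32. None of the 4 rises held in every fit with 1 array left out, where 0 to 2 genes were higher and 2 to 3 lower. UQCRC2 and UQCRH passed in none of these, their adjusted p values being 0.0528 to 0.0766 and 0.0601 to 0.0748, and UQCR10 and UQCR11 passed only without PC3-SCR replicate 1 (0.0485 and 0.028).

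In complex IV, cytochrome c oxidase, 1 of 10 common subunit genes rose, 4 fell and 5 did not pass. Their median log2 fold change was -0.22. Of all genes 26.7% were higher and 24.0% lower. Among those above background in both groups, where all 10 lay, 35.9% were higher and 29.4% lower. COX5A, an accessory subunit gene on the matrix side of the enzyme, had signals of 8.89 and 8.71 in PC3-SCR and of 9.58 and 9.54 in PC3-PDEF and rose by 0.76 (standard error 0.095, adjusted p = 0.000788). COX8A, a small subunit gene, went from 9.90 and 9.65 to 9.18 and 8.95, a fall of 0.71 (standard error 0.125, adjusted p = 0.00363). COX6C fell from 10.35 and 10.39 to 9.75 and 9.88, by 0.56 (adjusted p = 0.00232). COX7B fell by 0.44 and COX7C by 0.38. With 1 array left out, 1 to 2 of the common subunit genes were lower. COX8A lost its call without PC3-SCR replicate 1 (adjusted p = 0.0758), PC3-PDEF replicate 1 (0.0559) or PC3-PDEF replicate 2 (0.0954), and COX7B and COX7C without any 1 array (0.0887 to 0.275 and 0.0592 to 0.086). COX5B, the zinc-binding partner of COX5A in the enzyme, lay at 8.12 and 8.23 against 8.0 and 7.82, a difference of -0.27 (adjusted p = 0.0664), and COX4I1, at 7.61 and 7.67 against 7.43 and 7.49, of -0.18 (adjusted p = 0.118). After quantile normalization COX5B and COX4I1 passed as lower (adjusted p = 0.032 and 0.0245), as they did after median centring (0.029 and 0.0424). With the replicate number as a block neither passed (0.142 and 0.116). With an intensity trend COX5B passed as lower and COX6B1 as higher (0.0235 and 0.0176). Both also passed with a filter at the median level (0.025 and 0.0309), while COX4I1 passed in neither. COXFA4, long listed in complex I as NDUFA4 and now as a complex IV subunit, is outside the symbol rule and lay at 9.66 and 9.58 against 9.05 and 9.07, a fall of 0.56 (adjusted p = 0.00167).

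The isoforms that replace common complex IV subunits in muscle, lung or testis showed no change that passed the test. COX4I2, COX6B2, COX7A1, COX7B2 and COX8C were not above background in either group, with signals from 2.79 to 4.83, and COX6A2, the muscle isoform of COX6A1, lay at 6.02 and 6.23 against 6.12 and 6.07, just above it. Their differences ran from -0.14 to 0.14. Of the common partners, COX6A1 lay at 10.95 and 10.75 against 10.97 and 10.90 and COX6B1 at 8.88 and 8.74 against 9.0 and 9.08. COX7A2 lay at 8.69 and 8.70 against 8.86 and 8.76. COX6A1, COX6B1 and COX7A2 did not pass, nor did COX4I1, while COX7B and COX8A, the partners of COX7B2 and COX8C, were called lower, as given above. COX7A2L, whose product joins complexes III and IV in supercomplexes, lay at 9.56 and 9.47 against 9.47 and 9.43, a difference of -0.07 with a 95% interval of -0.27 to 0.14. COXFA4L2, the hypoxia-induced relative of COXFA4, was near background in both groups.

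In ATP synthase, 5 of 16 subunit genes rose (31.2%), 1 fell (6.2%) and 10 did not pass, with a median log2 fold change of 0.13. Of all genes 26.7% were higher and 24.0% lower, and of those above background in both groups 35.9% and 29.4%. ATP5F1C, which encodes the gamma subunit, the shaft that turns inside the catalytic head, had signals of 9.40 and 9.43 in PC3-SCR and of 10.50 and 10.38 in PC3-PDEF. It rose by 1.03 (standard error 0.087, adjusted p = 0.000148), a 2.04-fold higher signal. The genes of the catalytic head itself did not pass. ATP5F1A lay at 10.67 and 10.61 in both groups alike, with a 95% interval of -0.20 to 0.20, and ATP5F1B at 12.29 and 12.27 against 12.36 and 12.35, with an interval of -0.12 to 0.27. The delta subunit gene ATP5F1D lay at 8.75 and 8.64 against 9.11 and 8.89, a difference of 0.31 (adjusted p = 0.0519).

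The c ring, the proton-driven rotor, is made of 1 protein that 3 genes encode, ATP5MC1, ATP5MC2 and ATP5MC3, which differ in their mitochondrial targeting peptide. These genes did not move alike. ATP5MC2 had signals of 7.63 and 7.47 in PC3-SCR and of 8.44 and 8.34 in PC3-PDEF and rose by 0.84 (standard error 0.096, adjusted p = 0.000522). ATP5MC1 lay at 8.71 and 8.48 against 8.20 and 8.40, a difference of -0.30 (adjusted p = 0.0792), and passed as lower after quantile normalization (adjusted p = 0.0255) and after median centring (0.0382). ATP5MC3 lay at 5.66 and 5.33 against 5.70 and 5.68, at or under background in at least 1 array of each group. Among the membrane subunits ATP5MK, ATP5ME and ATP5MJ rose by 0.46, 0.41 and 0.37. In the peripheral stalk, which holds the head still, ATP5PD fell from 10.30 and 10.45 to 10.13 and 10.02, by 0.30 (adjusted p = 0.0389), while ATP5PB, ATP5PF and ATP5PO did not pass. ATP5IF1, the inhibitor that stops the enzyme from running backwards, lay at 7.81 and 7.56 against 7.70 and 7.78. With 1 array left out, 2 to 4 ATP synthase genes were higher and 0 lower. ATP5PD then had adjusted p values from 0.0753 to 0.211 and ATP5MK from 0.053 to 0.122, and ATP5ME and ATP5MJ passed only without PC3-SCR replicate 1 (0.0325 and 0.047).

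**Figure D2:**
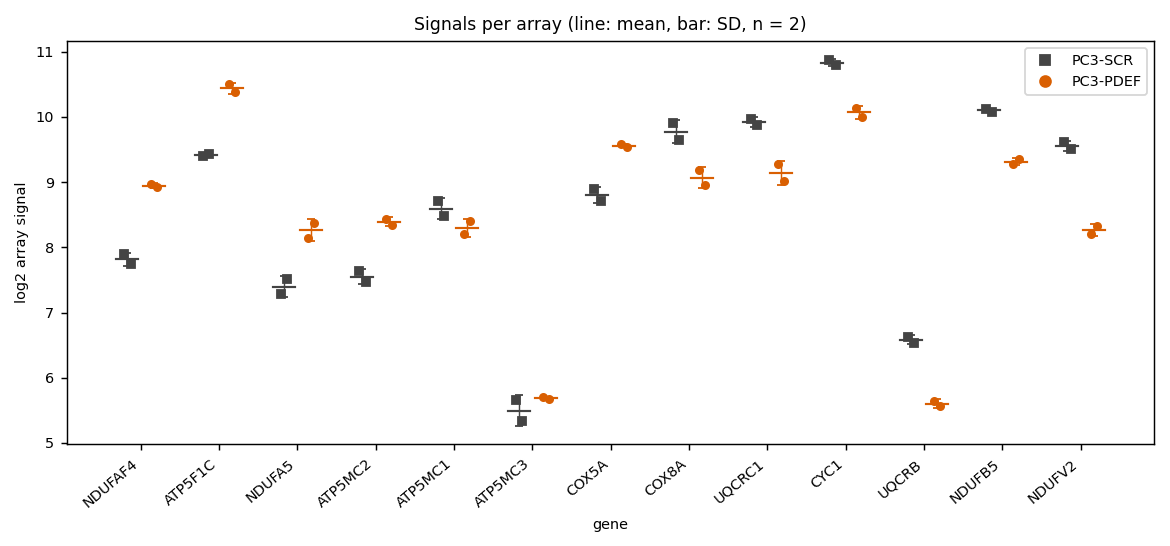
Log2 array signal (vertical axis) of 13 oxidative phosphorylation genes (horizontal axis) in the arrays of PC3-SCR (squares) and PC3-PDEF (circles). Short lines are means of the 2 arrays and bars their SD. NDUFV2 lies at 9.61 and 9.50 against 8.20 and 8.33, ATP5F1C at 9.40 and 9.43 against 10.50 and 10.38, and of the c ring genes ATP5MC2 is higher in PC3-PDEF while the arrays of ATP5MC1 are lower.

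For 8 members the array held more than 1 probe set, and the one with the highest mean stood for the gene. Probe set numbers run along the genome, so the chromosome on which a probe set was placed can be read from the named probe sets numbered next to it. For ATP5MK, NDUFAF2, NDUFV2, SDHC and SDHD the chosen probe set was numbered among those of another chromosome than the gene's own, while all members with a single probe set were at their own. For NDUFV2 the choice made no difference, since the probe set at its own chromosome, 18, gave 9.59 and 9.51 against 8.19 and 8.32, a difference of -1.30. For SDHD the probe set at its own chromosome, 11, gave 8.33 and 8.14 against 7.86 and 8.08, a difference of -0.27 that did not pass (adjusted p = 0.0995). ATP5MK and NDUFAF2 also missed the threshold when read at their own chromosome, with differences of 0.36 (adjusted p = 0.0639) and 0.25 (adjusted p = 0.0509). SDHC differed by 0.04 there. The pair of probe sets of NDUFB4 gave identical values in all 4 arrays.

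Members that lie on the same chromosome were compared next, a reading chosen after the values were seen, with chromosomes taken from RefSeq on GRCh38.p14. Chromosome 8 held 5 members, which belong to different complexes, and 4 of these fell, namely UQCRB, CYC1, COX6C and NDUFB9, while the fifth, NDUFAF6, was near background and did not pass. No member there rose, and their median log2 fold change was -0.56. Over all 639 genes of chromosome 8 the median was -0.12, with 31.6% called lower and 21.9% higher, against 24.0% and 26.7% of all genes. Over the 306 genes of chromosome 8 above background in both groups the median was -0.17, with 42.5% lower and 24.2% higher. Of the 16 members that fell, 4 thus lay on chromosome 8, and without chromosome 8 the members counted 23 higher and 12 lower, with a median of 0.08. Chromosome 3 held UQCRC1 and NDUFB5, which fell, NDUFAF3, which rose, and NDUFB4, which did not pass, where 24.9% of all genes were lower and 26.0% higher. Chromosome 10 held ATP5F1C, NDUFB8 and ATP5MK, which all rose, though ATP5MK did not pass when read from its probe set at that chromosome, where the median of all 679 genes was 0.005 and 33.0% were higher. On chromosome 16 UQCRC2, NDUFB10 and NDUFAB1 rose while COX4I1 and COX6A2 did not pass, and 30.2% of all genes there were higher. On chromosome 11, where the median of all genes was -0.13, with 28.5% lower and 15.3% higher, COX8A, SDHD and NDUFS8 fell and none of 7 members rose. SDHD did not pass when read from its probe set at that chromosome. The copy number of these chromosomes in the cells was not tested.

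**Figure D3:**
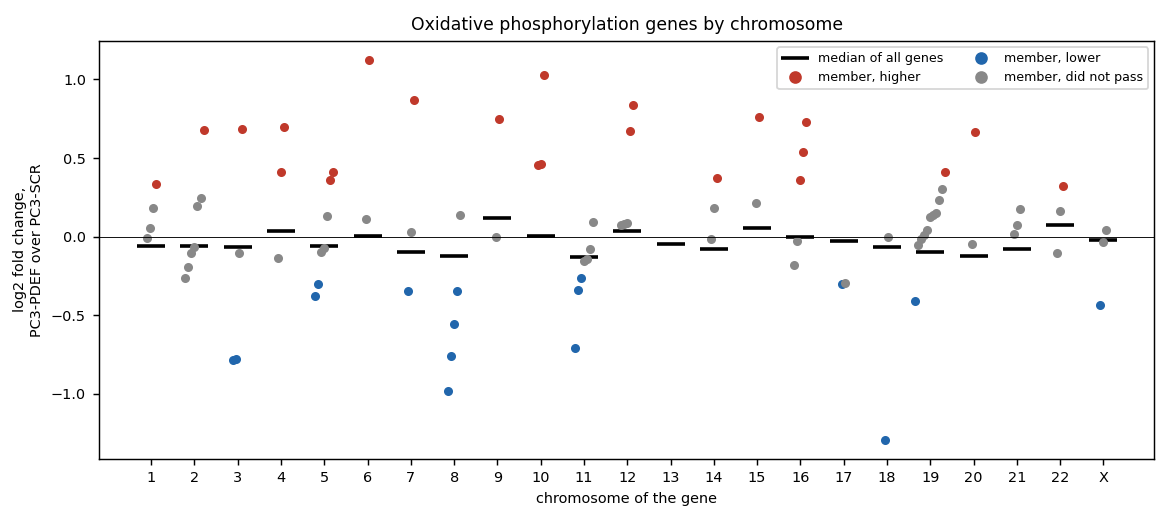
Log2 fold change of PC3-PDEF over PC3-SCR (vertical axis) of each oxidative phosphorylation gene (points, coloured by call) by the chromosome of the gene (horizontal axis), with the median of all measured genes of that chromosome (black line). On chromosome 8 the points of UQCRB, CYC1, COX6C and NDUFB9 lie between -0.98 and -0.35 and the chromosome's median at -0.12, while on chromosome 10 the 3 members lie between 0.46 and 1.03.

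Genes that serve the system without belonging to the symbol families were read from lists of their own. Of 37 measured assembly factors of the complexes, 15 rose and 6 fell, 56.8% called. Of all genes 50.7% were called (26.7% higher and 24.0% lower). Of those above background in both groups, where 33 of the 37 lay, 65.2% were (35.9% higher and 29.4% lower). COA6, a copper-binding factor of complex IV, had signals of 6.29 and 6.20 in PC3-SCR and of 7.64 and 7.73 in PC3-PDEF and rose by 1.44 (adjusted p = 3.91e-05). TTC19, a complex III factor, lay at 7.54 and 7.55 against 8.77 and 8.84 and rose by 1.26 (adjusted p = 5.09e-05). COX20, a chaperone of the COX2 subunit, fell from 8.11 and 8.15 to 7.18 and 7.12, by 0.98, and COX18, which inserts the same subunit in the membrane, fell by 0.78. With 1 array left out 8 to 12 of the list were higher and 4 to 5 lower.

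Of 17 genes of electron carriers and ubiquinone synthesis, 8 rose and 5 fell, 76.5% called. The share was 50.7% for all genes (26.7% higher and 24.0% lower). It was 65.2% for those above background in both groups (35.9% higher and 29.4% lower). The largest rise in any of these lists was that of COQ10A, a ubiquinone-binding protein gene, from 6.51 and 6.44 to 8.66 and 8.88, by 2.30 (adjusted p = 1.37e-05). ETFA, a subunit of the flavoprotein that brings electrons from fatty acid oxidation, rose from 8.01 and 7.85 to 9.85 and 9.86, by 1.93 (adjusted p = 1.66e-05). Its partner ETFB fell, from 7.66 and 7.55 to 7.25 and 7.14, by 0.41 (adjusted p = 0.00981, and between 0.0525 and 0.0972 with any 1 array left out), so that the genes of this heterodimer moved apart. COQ10B, the paralog of COQ10A, fell by 0.53 and PDSS2, a subunit of the enzyme that makes the ubiquinone tail, by 0.49. ETFB was named after its values were seen. CYCS, the gene of cytochrome c, had a difference of -0.16 (adjusted p = 0.146). Without PC3-PDEF replicate 1 or 2 the adjusted p of PDSS2 was 0.0551 or 0.0621, and with 1 array left out 6 to 7 genes of this list were higher and 1 to 3 lower.

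Of 19 genes that copy and express mitochondrial DNA or regulate the nuclear subunit genes, 10 rose and 1 fell. Their median log2 fold change was 0.40, and 57.9% were called, against 50.7% of all genes (26.7% higher and 24.0% lower). Among all genes above background in both groups, where 16 of the 19 lay, 65.2% were called (35.9% higher and 29.4% lower). GABPB1, a subunit of the ETS-family activator GABP (NRF-2), lay at 7.48 and 7.42 in PC3-SCR and at 8.48 and 8.56 in PC3-PDEF and rose by 1.07 (adjusted p = 0.000109). PPRC1, a PGC-1-related coactivator, lay at 6.88 and 6.67 against 7.68 and 7.67 and rose by 0.90. The fall was that of TFB2M, the mitochondrial transcription factor that melts promoters, from 8.61 and 8.60 to 7.26 and 7.32, by 1.32 (adjusted p = 4.23e-05). NRF1, TFAM, ESRRA and PPARGC1B did not pass, and PPARGC1A, the gene of PGC-1 alpha, was not above background in either group. Single arrays mattered for the count, which lay between 5 and 8 higher genes with 1 array left out. In the citric acid cycle list 5 of 12 genes rose and 2 fell, 58.3% called. All 12 were above background in both groups, where 65.2% of all genes were called (35.9% higher and 29.4% lower). IDH3A, a subunit of NAD-dependent isocitrate dehydrogenase, rose by 1.26 and DLST by 0.78, while OGDH fell from 10.17 and 10.08 to 8.78 and 8.65, by 1.41 (adjusted p = 5e-05). OGDH and DLST encode successive parts of the 2-oxoglutarate dehydrogenase complex, and they moved in opposite directions. SUCLA2, a subunit of succinyl-CoA synthetase, fell by 0.39 (adjusted p = 0.00725, and between 0.0462 and 0.0594 with 1 array left out), and 2 to 3 genes of this list were higher and 1 to 2 lower in those fits. None of the 13 subunits encoded in mitochondrial DNA was analysed here.

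**Figure D4:**
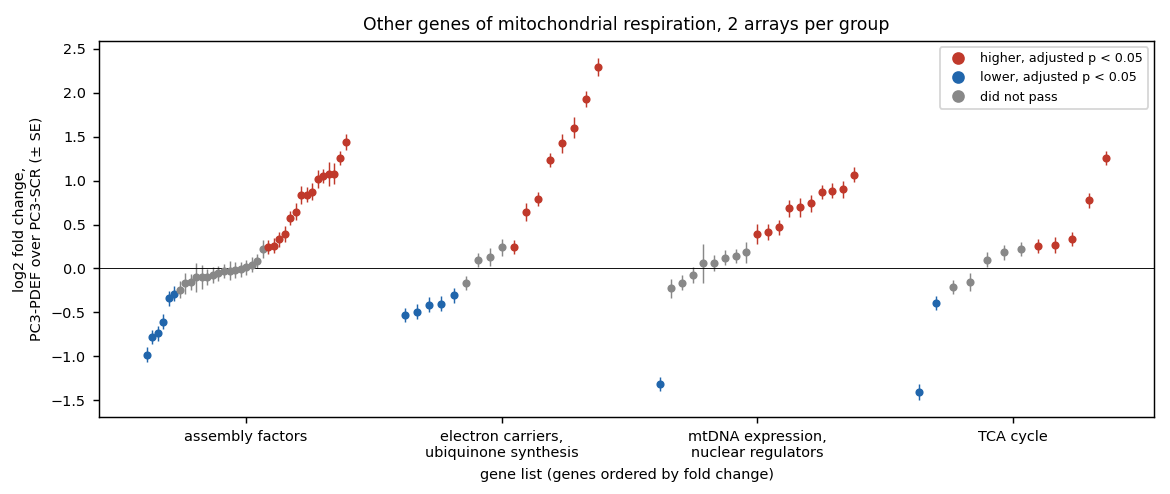
Log2 fold change of PC3-PDEF over PC3-SCR (vertical axis, bars are the standard error, 2 arrays per group) of each measured gene in 4 lists (horizontal axis, ordered by fold change within a list), with genes higher at an adjusted p under 0.05 in red, lower in blue and the others in grey. The lists reach from OGDH at -1.41 to COQ10A at 2.30, and in the list of mitochondrial DNA expression 10 of 19 genes are red and TFB2M alone is blue.

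Promoters of members that moved most, and of ATP5MC2 and UQCRC1 beside them, are shown since many nuclear genes of respiration are known to be driven by NRF1, GABP and YY1, and PDEF, an ETS factor like GABP, is known to prefer GGAT over GGAA cores. ATP5MC2 and UQCRC1 did not have the next largest changes, since NDUFA5 rose more than ATP5MC2 and UQCRB fell more than UQCRC1. The windows shown thus do not stand for the members. The sequences are from RefSeq on GRCh38.p14, 250 bases before to 50 after the start, written 5′ to 3′ along the gene. For a gene with several starts the window shown was picked because it holds most of the 4 motifs named next. It need not be that of the start most used. Capitals mark matches, on either strand, to GCGCATGC (the NRF1 core), CCGGAAG (the GABP form of the ETS core), CCGGAT (the form PDEF prefers) and AAGATGGC (YY1). ATP5F1C, ATP5MC2 and NDUFAF4 rose, and UQCRC1 and NDUFV2 fell.
ATP5F1C, chr10:7787927-7788226, plus strand: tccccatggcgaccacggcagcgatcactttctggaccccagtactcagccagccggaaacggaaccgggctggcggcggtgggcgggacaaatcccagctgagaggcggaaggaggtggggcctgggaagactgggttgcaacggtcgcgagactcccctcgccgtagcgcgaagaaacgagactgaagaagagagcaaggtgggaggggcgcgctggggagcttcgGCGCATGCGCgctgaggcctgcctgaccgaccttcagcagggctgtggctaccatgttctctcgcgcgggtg
ATP5MC2, chr12:53676034-53676333, minus strand: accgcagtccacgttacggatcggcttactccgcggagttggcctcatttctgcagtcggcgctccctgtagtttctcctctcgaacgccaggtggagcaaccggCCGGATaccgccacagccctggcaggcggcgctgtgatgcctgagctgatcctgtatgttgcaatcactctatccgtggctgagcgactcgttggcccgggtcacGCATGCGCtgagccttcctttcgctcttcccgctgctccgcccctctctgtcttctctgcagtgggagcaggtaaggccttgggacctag
NDUFAF4, chr6:96897842-96898141, minus strand: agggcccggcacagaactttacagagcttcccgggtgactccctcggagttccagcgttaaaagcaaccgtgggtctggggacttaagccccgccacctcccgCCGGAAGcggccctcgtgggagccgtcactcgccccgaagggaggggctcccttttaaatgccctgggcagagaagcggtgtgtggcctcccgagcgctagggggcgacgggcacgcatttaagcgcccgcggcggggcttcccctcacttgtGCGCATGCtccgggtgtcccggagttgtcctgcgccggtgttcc
UQCRC1, chr3:48609597-48609896, minus strand: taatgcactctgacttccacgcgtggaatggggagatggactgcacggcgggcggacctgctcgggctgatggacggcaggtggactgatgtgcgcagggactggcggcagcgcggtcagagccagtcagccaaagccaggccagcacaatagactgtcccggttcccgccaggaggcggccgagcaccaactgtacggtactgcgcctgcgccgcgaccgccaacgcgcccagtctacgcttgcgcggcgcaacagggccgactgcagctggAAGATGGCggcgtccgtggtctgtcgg
NDUFV2, chr18:9102449-9102748, plus strand: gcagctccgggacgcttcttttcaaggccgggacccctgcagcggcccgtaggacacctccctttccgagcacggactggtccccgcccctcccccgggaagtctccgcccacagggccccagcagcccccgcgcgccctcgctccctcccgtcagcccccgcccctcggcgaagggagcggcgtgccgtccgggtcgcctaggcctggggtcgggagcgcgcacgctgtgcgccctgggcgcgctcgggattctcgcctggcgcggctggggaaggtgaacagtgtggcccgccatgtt

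In the windows shown, ATP5F1C held overlapping NRF1 cores, 1 on each strand, which merge in the capitals. ATP5MC2 held an NRF1 core and the CCGGAT form, NDUFAF4 an NRF1 core and the GABP form, UQCRC1 the YY1 letters within the transcribed part of the window, and NDUFV2 none of the 4. Promoters of 74 members were listed, with 90 windows in all, and those of 14239 genes tested. An NRF1 core stood in 20.3% of the members and in 4.9% of all genes, the GABP form in 28.4% and 16.8%, the CCGGAT form in 17.6% and 11.1%, and the YY1 letters in 14.9% and 4.9%. By direction, the NRF1 core stood in 8 of 23 members that rose, 1 of 11 that fell and 6 of 40 that did not pass, and the CCGGAT form in 8 of 23, 1 of 11 and 4 of 40. Over all genes the NRF1 core stood in 6.7% of those higher and 4.9% of those lower, and the CCGGAT form in 13.7% and 12.7%. The GABP form stood in 5 of 23, 4 of 11 and 12 of 40 members, and the YY1 letters in 1 of 23, 1 of 11 and 9 of 40. Of the members that fell, UQCRC1 was the 1 with the YY1 letters. Over all genes the GABP form stood in 22.7% of those higher and 17.6% of those lower, and the YY1 letters in 6.8% and 4.9%. These are counts of letters in a short window, genes with several starts had more windows, and binding of any of these factors was not tested.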

How the data were processed

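Gene expression was measured with Affymetrix HuGene-1.0-st arrays in 2 PC3-SCR and 2 PC3-PDEF samples. The deposited values are log2 signals of 33297 probe sets, which the authors made with Transcriptome Analysis Console, per the labels. The version of that program, and how it corrected background and normalized, are not stated, and the log base was inferred from the range. Array medians lay between 5.41 and 5.46, so values were used as deposited, and a shift common to all genes would have been removed. The platform annotation gave names. Of the probe sets 19460 had 1 symbol, 1754 had several and 12083 were not listed. The probe set with the highest mean stood for each of 18417 genes.

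The tests were two-sided, from lmFit and eBayes of limma 3.58.1 under R 4.3.3, with Benjamini-Hochberg adjustment over all genes and a threshold of 0.05. The script was tested on simulated data. Set tests were not run, and an exact permutation test of 2 against 2 arrays cannot reach the threshold. Alternatives were other scalings, probe sets, filters and priors, a replicate block, and fits without 1 array. Members and lists were chosen with earlier results of these data known. Genes were named by a rule: the 2 largest called changes in each direction per complex or list, all called 2-fold changes, the SDH genes, CYC1, ATP5IF1 and isoform pairs. Partners and other genes outside it were named after their values were seen.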

Additional observations from a re-analysis of the deposited data

How the results depend on the processing

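With 1 array left out, all genes called lay between 5336 and 6460, all genes called higher between 3010 and 3635, all genes called lower between 2326 and 2856, members higher between 12 and 18, members lower between 5 and 8, and the members' median between 0.01 and 0.07. The lowest counts of all genes and of members higher were those without PC3-PDEF replicate 2, and the lowest of members lower that without PC3-SCR replicate 1. After median centring the members' median was -0.02, where that of all genes was -0.12, with 22 higher and 20 lower. Quantile normalization, an intensity trend, a filter at the median level and the median over probe sets left members higher at 22 to 26 and lower at 16 to 21. Use of annotation symbols alone could change nothing, since no member's current symbol differed from its annotation symbol. Alternatives chosen after seeing the data gave 21 higher and 15 lower with probe sets at the gene's own chromosome, and 23 and 12 without chromosome 8. Without the 10 members near background in both groups the counts stayed at 23 and 16, which was fixed beforehand since none of the 10 was called. With the replicate number as a block, 7974 of all genes were called, members counted 20 higher and 11 lower, and 31 of the 39 called members passed. Same-numbered arrays shared little (correlation of their deviations from the group means 0.02). The labels do not say whether the numbers pair the arrays, and with 2 arrays per group this correlation cannot settle it. SPDEF passed under each alternative run, with differences from 0.68 to 0.83. Signal over background limits SPDEF, UQCRB, NDUFAF5, NDUFS4, ATP5MC3 and the tissue-restricted isoforms.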
